A study of Xenopus laevis with 3 samples.

Results

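The complement components and ficolins of Xenopus laevis were followed through the developing gut endoderm on spotted cDNA arrays. The spots were chosen by a rule on their annotated name that uses no measured value, set with earlier results of these data known. It took every spot whose name contains "complement C", "complement component", "complement factor" or "ficolin". The rule found 32 of the 21504 spots on each array. They carry 10 kinds of annotation: complement C3 matched to Xenopus (5 spots) and to chicken (2 spots), complement factor B (3), the C3b/C4b inactivator (8), C8 (1), C8 beta (2), C9 (4), ficolin 1 (2), ficolin 2 (3) and the C5a anaphylatoxin receptor (2). Of these, 25 spots were bright enough to be tested and 7 were not.

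Complement is a cascade of plasma proteins, most of them made by the liver in adult vertebrates, that tags and lyses microbes. All its routes meet at C3, whose cleavage leaves C3b on a surface. Factor B builds the enzyme that amplifies this step in the alternative pathway, factor I (the C3b/C4b inactivator) cuts C3b and C4b and so limits it, and ficolins are sugar-binding proteins that start the lectin pathway. C8 and C9 belong to the terminal proteins that form the membrane attack pore, and the C5a receptor is the membrane protein through which a released peptide, C5a, attracts white blood cells.

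Endoderm of Xenopus laevis embryos was taken at stages 30, 39 and 46 and dissected into an anterior region, which later gives rise to liver, pancreas, stomach and lung, and a posterior region, which gives rise to the intestine. The study looked for genes of the endodermal organs. No genotype or treatment is named, and the embryos of all groups differ only in stage and region as far as the labels say. RNA of both regions of a stage was hybridised together to 2 arrays, called A and B here, so 6 arrays were read. Anterior cDNA carried Cy5 and posterior cDNA carried Cy3 on every array, so region and dye cannot be told apart within any 1 ratio. A dye effect common to all arrays cancels in a change of the ratio between stages. Nothing in the labels says that A and B came from separate dissections, and the p-values therefore measure only the spread between hybridisations.

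Median spot intensity over all spots ran from 607 to 2988.5 in the anterior channel and from 807 to 3037 in the posterior channel, and was lowest at stage 46 and highest on array A of stage 30. Across probes the log2 ratios on both arrays of a stage correlated with r = 0.848 at stage 30, 0.947 at stage 39 and 0.935 at stage 46, and arrays of different stages with r between 0.044 and 0.337. Spots annotated as endodermin, GATA-6B, hepatocyte nuclear factor or villin were listed after values were seen. Of these, 8 of 9 passed the filter on dim spots, and none lacked signal above background on all arrays. Most skeletal muscle and epidermis spots passed too (60 of 75 and 40 of 46), and none of them lacked signal on all arrays. These values therefore cannot tell endoderm from other tissue. With so few arrays, precision is limited throughout.

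At stage 39 the complement spots were as a group lower in anterior than in posterior endoderm, and they were not so at stages 30 and 46. C3, factor B, the C3b/C4b inactivator, C9 and ficolin 2 were lower in anterior endoderm at stage 39 on each tested spot. The regions differed by 1.43- to 3.97-fold where both could be measured, and the size of the largest folds, on C3, depended on the processing. By stage 46 the difference had shrunk or turned: factor B and the spots matched to chicken C3 were then higher in anterior endoderm, by 2.57- and 2.61-fold on the spots where both regions could be measured. In these bulk samples, fewer cells of a type and less RNA per cell cannot be told apart. All ratios below are log2 of anterior over posterior, so a negative value means less signal in anterior endoderm.

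Of 25 tested spots, 20 were lower and 1 was higher in anterior endoderm at stage 39 in limma's fit (Benjamini-Hochberg adjusted p under 0.05), where 31.7% of all 13935 tested probes were lower and 31.4% were higher. By the fitted value, anterior signal was over 2-fold lower for 14 of the 25, against 4.13% of all tested probes. Of the 14, 2 were spots with too little signal for a fold (XL092d13 and XL064m07). The 14 included 5 Xenopus C3 spots, 4 inactivator spots and 3 C9 spots. Spots of the same annotation may measure the same gene, so these counts are not counts of independent genes. The median log2 ratio of the 25 spots was -1.12 at stage 39, beside 0.01 over all tested probes. With median centring in place of loess it was -0.86, so fewer of the spots were then over 2-fold lower. No call at stage 39 ended under any alternative that still tested the spot.

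At stage 30, 9 of the 25 spots were higher and 10 were lower in anterior endoderm, close to the background of 28.6% higher and 27.7% lower among 14105 probes. Their median was 0.11. At stage 46, 11 of 23 tested spots were higher (30.4% of 14049 probes) and 5 were lower (25.2%), with a median of 0.14. At that stage 3 of the 23 were over 2-fold higher in anterior endoderm by the fitted value, against 1.35% of all probes. The 5 lower spots became 3 without stage 46 array A and 3 without stage 46 array B.

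**Figure D1:**
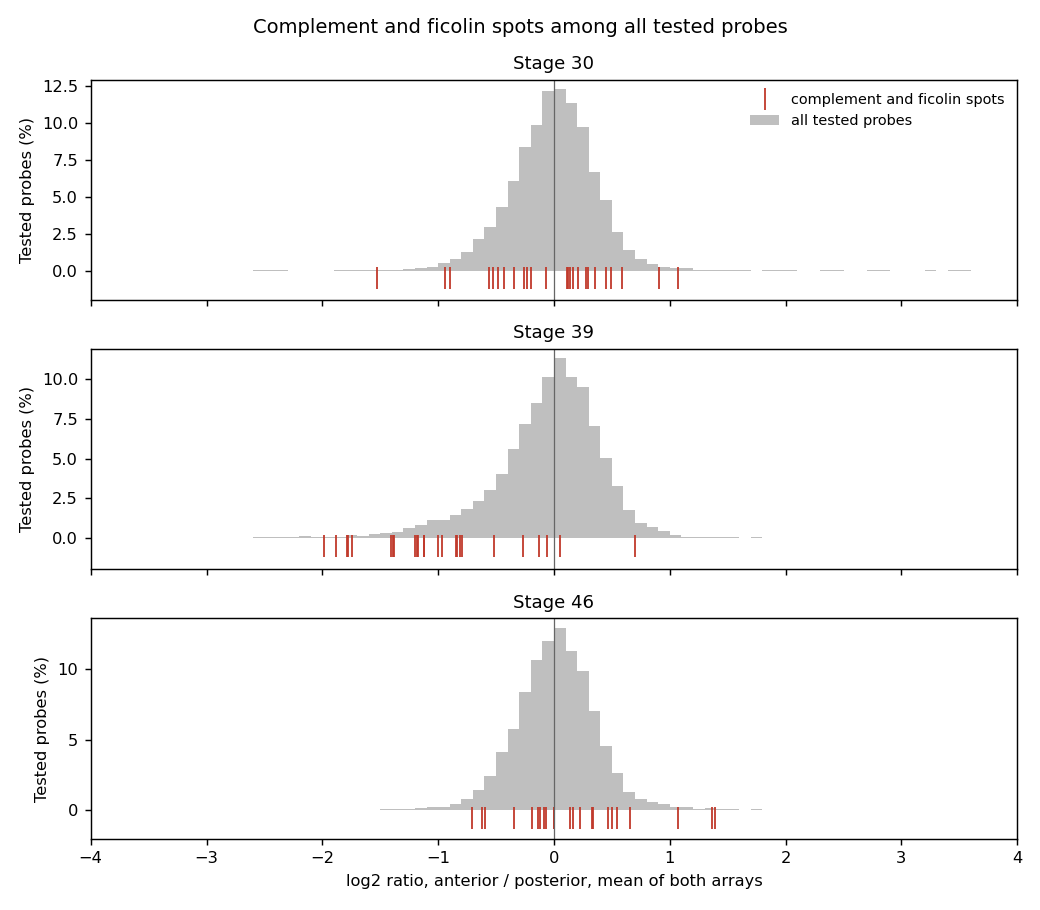
Share of all tested probes (grey bars, percent) by log2 ratio of anterior over posterior at each stage, with 1 red mark for each tested complement or ficolin spot (mean of 2 arrays). The red marks lie on both sides of 0 at stages 30 and 46, and at stage 39 most lie far to the left, with a median of -1.12.

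The change of the ratio between stages was tested in the same fit. From stage 30 to 39 it fell for 20 of 25 spots (30.5% of 12787 probes) and rose for 1 (29.6%), and 14 fell by over 2-fold, against 6.05% of all probes. From stage 39 to 46 it rose for 20 of 23 spots (28.1% of 12677 probes) and fell for 1 (22.1%), and 16 rose by over 2-fold, against 3.99%. These changes share the stage 39 arrays, so they are not independent of each other. Between stages 30 and 46 the ratio rose for 10 of 23 spots (28.7% of 12847 probes) and fell for 5 (24.7%). For these spots that change is the sum of the changes from stage 30 to 39 and 39 to 46, so it is not independent of them either. Without stage 46 array A, the 5 became 2.

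Of the 23 spots with a value on all 6 arrays, 18 had both stage 39 ratios below all 4 other ratios, and 27.3% of all probes did so. Both stage 46 ratios lay above all 4 other ratios for 14 of the 23, against 22.3% of all probes.

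**Figure D2:**
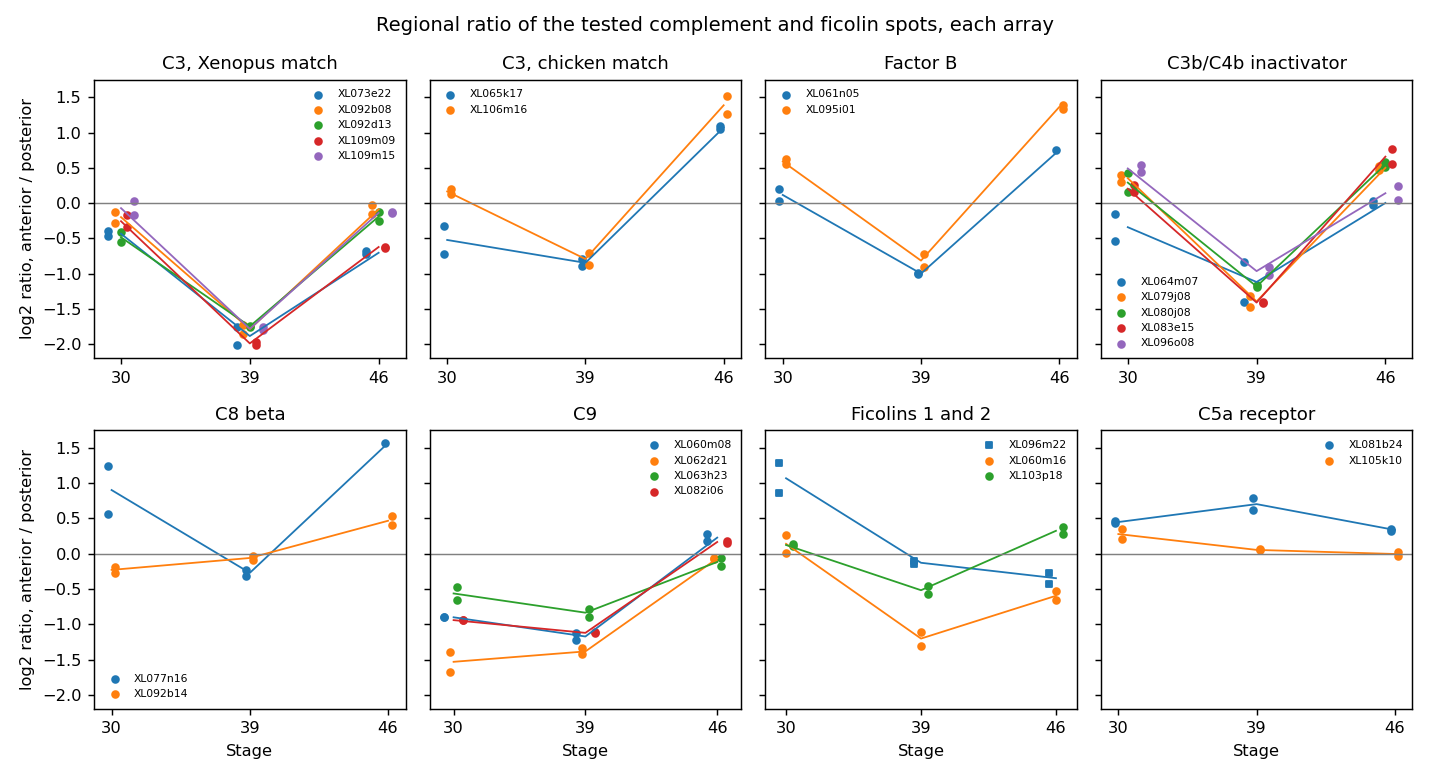
Log2 ratio of anterior over posterior on each array (points, 2 per stage, lines through the stage means) for the 25 tested spots, by annotation; ficolin 1 is drawn with squares. Factor B spot XL061n05 and C8 beta spot XL077n16 have 1 array at stage 46. The C3, factor B and inactivator panels dip at stage 39, C9 is low at stages 30 and 39, and the C5a receptor panel shows no dip.

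C3, the central protein of the cascade, had the lowest ratios among all tested complement spots at stage 39 on its spots matched to Xenopus. For XL109m09 the log2 ratio was -0.35 and -0.17 on arrays A and B of stage 30, -1.97 and -2.01 at stage 39, and -0.63 and -0.62 at stage 46. All 6 ratios were below 0, and the stage 39 arrays lay far below the other 4. On stage 30 array A both channels of this spot were at the scanner's limit, so its ratio there cannot show which region had less signal. Anterior signal was 3.97-fold lower at stage 39 (-1.99 ± 0.06, SE, n = 2 arrays, limma adjusted p = 7.52e-07), and 1.54-fold lower at stage 46 (-0.62 ± 0.06, adjusted p = 0.000172). Over all settings tried, its log2 ratio ran from -2.03 to -1.38 at stage 39 and from -0.67 to -0.23 at stage 46. The size of these folds thus depended on the processing. The ratio fell by 1.73 ± 0.09 from stage 30 to 39 (adjusted p = 1.36e-05) and rose by 1.37 ± 0.09 from stage 39 to 46 (adjusted p = 2.58e-05).

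XL109m15 had ratios of -0.17 and 0.02 at stage 30, -1.76 and -1.80 at stage 39, and -0.15 and -0.13 at stage 46. XL092b08 had ratios of -0.12 and -0.28, -1.85 and -1.72, and -0.02 and -0.15 at the same stages. On both spots the stage 39 arrays stood apart from the other 4, which lay near 0. Their regional differences at stage 39 were 3.44-fold and 3.45-fold (-1.78 ± 0.06 and -1.79 ± 0.07, adjusted p = 1.28e-06 and 1.63e-06). Over all settings tried, these log2 ratios ran from -1.81 to -1.23 and from -1.85 to -1.23. At stage 46 neither spot passed (adjusted p = 0.0949 and 0.292).

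XL073e22 had ratios of -0.40 and -0.47 at stage 30, -2.02 and -1.75 at stage 39, and -0.73 and -0.68 at stage 46, so it was below 0 on all 6 arrays. Its difference was 1.35-fold, 3.69-fold and 1.63-fold at the 3 stages, each with lower anterior signal (adjusted p = 0.00174, 1.71e-06 and 0.000208). Over all settings tried, its stage 39 ratio ran from -2.02 to -1.57. Its anterior signal was well above background on 4 and its posterior signal on 5 of the 6 arrays. XL092d13, the spot matched from its 3' end, was not well above background in the anterior channel on any array, and its posterior channel was so on 1 array each of stages 30 and 39. No fold is given for it. Its log2 ratio at stage 39 was -1.75 ± 0.06 (adjusted p = 1.28e-06). At stage 46 neither of its regions was well above background.

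Over these 5 spots the mean ratio was -0.29 at stage 30 (SD 0.17 between spots), -1.84 at stage 39 (SD 0.10) and -0.35 at stage 46 (SD 0.29). The spots thus lay closest together at stage 39. At stage 30, 4 of the 5 were lower in anterior endoderm, by 1.15- to 1.35-fold on the 3 other than XL092d13. Over all tested probes 27.7% were lower at that stage. XL109m09 lost its stage 30 call without stage 30 array A (-0.17, adjusted p = 0.0778), and XL092b08 lost its own when stage 30 array B (-0.12, adjusted p = 0.259) or either stage 46 array (adjusted p = 0.0518) was left out. Median centring in place of loess also ended both of these stage 30 calls.

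C3 spots were partly saturated on both stage 30 arrays, and more so on array A. On XL109m09, 95% of the anterior and 91% of the posterior pixels were at the scanner's limit on array A, and 18% and 14% on array B. On XL109m15 the shares were 84% and 37% on array A, and 15% and 1% on array B. On XL092b08 they were 39% and 29% on array A, and 17% and 15% on array B. At stage 39 the posterior share was at most 16% and the anterior share 0% on all 5 spots. Without stage 30 array A, the fall of the ratio from stage 30 to 39 was -1.82 for XL109m09 and -1.81 for XL109m15. For these spots it was thus as large with array B alone, which was itself partly saturated. For XL092b08 it was -1.51 without array A and -1.59 with it.

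The 2 spots whose best match was chicken C3 showed a different course after stage 39. XL106m16 had ratios of 0.13 and 0.20 at stage 30, -0.71 and -0.87 at stage 39, and 1.26 and 1.51 at stage 46. The 3 stages did not overlap, with stage 39 lowest and stage 46 highest. Anterior signal was 1.73-fold lower at stage 39 (-0.79 ± 0.08, adjusted p = 8.56e-05) and 2.61-fold higher at stage 46 (1.39 ± 0.08, adjusted p = 1.09e-05). The rise of the ratio between these stages was 2.18 ± 0.11 (adjusted p = 8.87e-06).

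XL065k17 had ratios of -0.72 and -0.33 at stage 30, -0.90 and -0.80 at stage 39, and 1.10 and 1.04 at stage 46. Only its stage 46 arrays were above 0. Posterior signal was not well above background on either stage 46 array, so no fold is given there. The log2 ratio was 1.07 ± 0.09 (adjusted p = 7.88e-05). From stage 30 to 46 its ratio rose by 1.59 ± 0.13 (adjusted p = 8.08e-05), and that of XL106m16 rose by 1.22 ± 0.11 (adjusted p = 0.000119). Of the 5 spots matched to Xenopus C3, 1 rose and 1 fell over the same interval (XL092d13, 0.29 ± 0.09, and XL109m09, -0.37 ± 0.09). The rise of XL092d13 was 0.23 when either stage 30 array A or stage 46 array B was left out (adjusted p = 0.0799 and 0.144). The fall of XL109m09 was -0.36 without stage 46 array A and -0.14 under median centring (adjusted p = 0.056 and 0.316). The files hold no clone sequences, so which gene or gene copy each C3 spot measures could not be checked.

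Factor B is the protease subunit of the alternative pathway enzyme. On 1 of its 2 tested spots the region with more signal was anterior, then posterior, then anterior again. Spot XL095i01 had ratios of 0.62 and 0.55 at stage 30, -0.73 and -0.90 at stage 39, and 1.39 and 1.34 at stage 46. No stage overlapped another. Anterior signal was 1.50-fold higher at stage 30 (0.59 ± 0.06, adjusted p = 0.000276), 1.76-fold lower at stage 39 (-0.82 ± 0.06, adjusted p = 3.09e-05) and 2.57-fold higher at stage 46 (1.36 ± 0.06, adjusted p = 5.07e-06). The rise from stage 39 to 46 was 2.18 ± 0.09 (adjusted p = 4.14e-06).

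The second tested factor B spot, XL061n05, had ratios of 0.20 and 0.03 at stage 30 and -1.01 and -0.99 at stage 39. Its regional difference at stage 30 did not pass. Anterior signal was 2.00-fold lower at stage 39 (log2 SE 0.07, adjusted p = 3.26e-05). It was not found on stage 46 array A and so was not tested at stage 46, where array B gave 0.75. The third factor B spot, XL082h15, was too dim for the filter, with ratios of 0.70 and 0.76, -0.82 and -0.96, and 0.75 and 0.98 at the 3 stages. On all 3 spots the stage 39 ratios were below 0 and the other ratios above it.

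The C3b/C4b inactivator limits the cascade. It was higher in anterior endoderm on 4 of its 5 tested spots at stage 30 (28.6% of all tested probes). It was lower on all 5 at stage 39 (31.7% of all) and higher on 3 at stage 46 (30.4% of all). Spot XL083e15 had ratios of 0.15 and 0.25 at stage 30, -1.41 and -1.41 at stage 39, and 0.76 and 0.56 at stage 46. Stage 39 lay below and stage 46 above the other arrays. Anterior signal was 2.66-fold lower at stage 39 (-1.41 ± 0.07, adjusted p = 4.27e-06) and 1.58-fold higher at stage 46 (0.66 ± 0.07, adjusted p = 0.000187). The rise of its ratio from stage 39 to 46 was 2.07 ± 0.09 (adjusted p = 6.05e-06).

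XL079j08 had ratios of 0.40 and 0.30 at stage 30, -1.32 and -1.47 at stage 39, and 0.47 and 0.53 at stage 46. XL080j08 had 0.15 and 0.42, -1.17 and -1.20, and 0.58 and 0.51. Both were below 0 on the stage 39 arrays and above it on the other 4. Their differences at stage 39 were 2.63-fold and 2.27-fold (-1.39 ± 0.06 and -1.18 ± 0.07, adjusted p = 3.51e-06 and 1.13e-05), and at stage 46 1.41-fold and 1.46-fold the other way (adjusted p = 0.000487 and 0.000651).

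XL096o08 had ratios of 0.54 and 0.44 at stage 30, -0.91 and -1.02 at stage 39, and 0.04 and 0.24 at stage 46. Its ratio was higher at stage 30 than at stage 46 (change -0.35 ± 0.10, adjusted p = 0.0171), while that of XL083e15 rose by 0.45 ± 0.09 over that interval (adjusted p = 0.00488); the difference between these spots was not tested. Without stage 46 array A the change of XL096o08 was -0.26 (adjusted p = 0.122), and without stage 30 array A it was -0.30 (adjusted p = 0.0605). XL064m07 had ratios of -0.15 and -0.54, -1.40 and -0.84, and -0.03 and 0.03. On that spot neither region was well above background at stage 39, so no fold is given.

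Over the 5 tested inactivator spots the mean ratio was 0.20 (SD 0.32 between spots), -1.21 (SD 0.19) and 0.37 (SD 0.28) at stages 30, 39 and 46. The stage 30 call of XL083e15 ended without any one of the stage 30 and stage 39 arrays (adjusted p from 0.0509 to 0.185), and that of XL080j08 without stage 30 array B (0.15, adjusted p = 0.107). The fall of XL064m07 from stage 30 to 39 was -0.50 without stage 39 array A (adjusted p = 0.0524).

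Among the terminal proteins, C9, the unit that polymerises into the pore, was lower in anterior endoderm already at stage 30. Spot XL062d21 had ratios of -1.39 and -1.68 at stage 30, -1.43 and -1.34 at stage 39, and -0.06 and -0.07 at stage 46. The arrays of stages 30 and 39 overlapped, and both stage 46 arrays lay far above them. Anterior signal was 2.89-fold lower at stage 30 (-1.53 ± 0.08, adjusted p = 2.37e-05) and 2.61-fold lower at stage 39 (-1.39 ± 0.08, adjusted p = 7e-06). The stage 46 ratio of -0.07 did not pass (adjusted p = 0.47).

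XL060m08 had ratios of -0.90 and -0.90 at stage 30, -1.12 and -1.23 at stage 39, and 0.18 and 0.27 at stage 46. XL082i06 had ratios of -0.94 and -0.94, -1.13 and -1.11, and 0.15 and 0.18. Both were below 0 on the 4 arrays of stages 30 and 39 and above 0 at stage 46. Anterior signal was 1.87-fold and 1.92-fold lower at stage 30 and 2.26-fold and 2.18-fold lower at stage 39 (adjusted p between 4.12e-06 and 4.19e-05). At stage 46 it was 1.17-fold and 1.12-fold higher, and both of these calls ended without either stage 46 array (adjusted p = 0.0563 and 0.155 for XL060m08, 0.136 and 0.205 for XL082i06, without arrays A and B).

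The fourth C9 spot, XL063h23, was dim, with ratios of -0.47 and -0.66 at stage 30, -0.89 and -0.78 at stage 39, and -0.18 and -0.06 at stage 46. Its signal was well above background on 2 arrays in the anterior and 3 in the posterior channel. Over the 4 spots the mean ratio was -0.98 at stage 30 (SD 0.40 between spots), -1.13 at stage 39 (SD 0.23) and 0.05 at stage 46 (SD 0.17). The ratio rose on all 4 from stage 30 to 46, by 0.45 to 1.46 (28.7% of all tested probes rose). From stage 39 to 46 it rose on all 4, by 0.72 to 1.40 (28.1% of all rose). From stage 30 to 39 it fell on 2 of the 4 (XL060m08 and XL063h23, each by 0.27), and neither fall passed with scaling between arrays (adjusted p = 0.17 and 0.11), while with median centring the change of XL060m08 was 0.013. Without stage 39 array B these falls were -0.22 and -0.33 (adjusted p = 0.119 and 0.0686). The fall of XL063h23 also ended without any one of stage 30 array A, stage 39 array A and the stage 46 arrays (adjusted p = 0.0579 to 0.196), and its rise to stage 46 was 0.38 without stage 46 array B (adjusted p = 0.0512).

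C8, another protein of the pore, had 2 tested spots that took different courses. The C8 beta spot XL092b14, well above background in both channels on all 6 arrays, had ratios of -0.28 and -0.18 at stage 30, -0.04 and -0.09 at stage 39, and 0.41 and 0.53 at stage 46. The ratio rose from stage to stage without overlap. Anterior signal was 1.38-fold higher at stage 46 (0.47 ± 0.06, adjusted p = 0.000559), and the ratio rose by 0.70 ± 0.08 from stage 30 to 46 (adjusted p = 0.000443). Its stage 30 call (-0.23 ± 0.06, adjusted p = 0.0126) ended without stage 30 array A (-0.18, adjusted p = 0.0862).

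The other C8 beta spot, XL077n16, had ratios of 1.25 and 0.56 at stage 30 and -0.23 and -0.31 at stage 39. It was well above background on only 2 arrays in the anterior and 1 in the posterior channel. At stage 39 its posterior channel was not so on either array. Anterior signal was 1.87-fold higher at stage 30 (0.90 ± 0.14, adjusted p = 0.0022), and the ratio fell by 1.17 ± 0.20 to stage 39 (adjusted p = 0.00265). It was not found on stage 46 array A and was not tested there, and array B gave 1.57. The single spot annotated only as C8, XL061p21, was too dim to be tested. Its ratios were 0.01 and -0.20, -0.94 and -0.89, and 0.21 and -0.02 at the 3 stages.

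Ficolin spots followed more than 1 course. On ficolin 2 spot XL060m16 the ratio was 0.27 and 0.02 at stage 30, -1.30 and -1.10 at stage 39, and -0.66 and -0.53 at stage 46. Stage 39 was lowest, and stage 46 stayed below stage 30. Anterior signal was 2.30-fold lower at stage 39 (-1.20 ± 0.08, adjusted p = 1.65e-05) and 1.51-fold lower at stage 46 (-0.60 ± 0.08, adjusted p = 0.000733).

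Ficolin 2 spot XL103p18 had ratios of 0.13 and 0.11 at stage 30, -0.46 and -0.57 at stage 39, and 0.37 and 0.28 at stage 46. Its stage 46 arrays were the highest, unlike those of XL060m16. Anterior signal was 1.43-fold lower at stage 39 (-0.52 ± 0.06, adjusted p = 0.000188) and 1.25-fold higher at stage 46 (0.32 ± 0.06, adjusted p = 0.00255). Without stage 46 array A the latter was 0.28 (adjusted p = 0.0558).

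Ficolin 1 was represented by 1 tested spot, XL096m22, with ratios of 1.28 and 0.86 at stage 30, -0.11 and -0.15 at stage 39, and -0.27 and -0.42 at stage 46. It was high in anterior endoderm at stage 30 and below 0 on the 4 later arrays. The stage 30 difference was 2.10-fold (1.07 ± 0.10, adjusted p = 0.000139), and the ratio fell by 1.20 ± 0.14 from stage 30 to 39 (adjusted p = 0.000239). From stage 39 to 46 the change was -0.22 ± 0.14 and did not pass (adjusted p = 0.213). The stage 46 call (-0.35 ± 0.10, adjusted p = 0.0168) ended without array A (-0.42, adjusted p = 0.0661), without array B (-0.27, adjusted p = 0.192) and with no background subtraction (-0.28, adjusted p = 0.069).

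The C5a receptor, found in other vertebrates mainly on white blood cells, did not share the dip at stage 39. Spot XL081b24 had ratios of 0.46 and 0.44 at stage 30, 0.62 and 0.79 at stage 39, and 0.32 and 0.35 at stage 46. All 6 were above 0, and the stage 39 arrays were the highest. Anterior signal was 1.37-fold higher at stage 30 (0.45 ± 0.06, adjusted p = 0.000698) and 1.63-fold higher at stage 39 (0.70 ± 0.06, adjusted p = 5.24e-05). At stage 46 neither region was well above background.

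This spot was the single one among the 25 that was higher in anterior endoderm at stage 39, the single one whose ratio rose from stage 30 to 39 (0.25 ± 0.09, adjusted p = 0.0342) and, among 23, the single one whose ratio fell from stage 39 to 46 (-0.37 ± 0.09, adjusted p = 0.00951). The rise ended without any one of stage 30 array A, stage 30 array B, stage 39 array B and the stage 46 arrays (adjusted p = 0.0596 to 0.197), and with scaling between arrays (0.19, adjusted p = 0.112). The fall was -0.28 and -0.35 when stage 39 array B and stage 46 array A were left out (adjusted p = 0.0665 and 0.0612). Receptor spot XL105k10 had ratios of 0.21 and 0.35 at stage 30, 0.05 and 0.06 at stage 39, and 0.02 and -0.03 at stage 46. It passed at stage 30 (0.28 ± 0.06, adjusted p = 0.00509) and was close to 0 later. Its ratio fell by 0.22 ± 0.08 from stage 30 to 39 (adjusted p = 0.0467) and by 0.28 ± 0.08 from stage 30 to 46 (adjusted p = 0.0221). The first fall ended without any one array other than stage 30 array A (adjusted p = 0.076 to 0.153) and with plain subtraction (adjusted p = 0.0554), and was 0.03 with median centring. The second ended without stage 30 array B (-0.21), stage 46 array A (-0.31) or stage 46 array B (-0.26), with adjusted p of 0.0714, 0.0737 and 0.112.

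The 7 spots left out by the filter were XL081h07, XL081o02 and XL095f11 (inactivator), XL082h15 (factor B), XL061p21 (C8), XL072g12 (ficolin 1) and XL075h22 (ficolin 2). None was well above background on more than 1 array in either channel. XL081h07 had ratios of 0.17 and 0.20, -0.02 and -0.12, and 0.19 and 0.26, and XL095f11 had 0.00 and 0.02, 0.48 and 0.44, and 0.21 and 0.14. Tested with no filter on dim spots, the ratio of XL081h07 fell by 0.25 from stage 30 to 39 (limma adjusted p = 0.0304) and rose by 0.30 to stage 46 (adjusted p = 0.019). That of XL095f11 went the other way, with changes of 0.45 and -0.28 (adjusted p = 0.00177 and 0.0178). The ratio of XL082h15 changed by -1.62 and then 1.76 (adjusted p = 3.65e-05 and 2.75e-05). For XL061p21 the changes were -0.82 and 1.01 (adjusted p = 0.000594 and 0.000365). XL081o02 was found on 3 arrays (-0.28, -0.42 and, at stage 46, -0.42), and XL072g12 on 2 (-0.62 at stage 39 and -0.26 at stage 46). XL075h22 had ratios of -0.42 and 0.04 at stage 30, -0.27 on 1 array of stage 39, and -0.05 and -0.27 at stage 46.

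Each channel was then read on its own, on levels normalised across arrays (log2, no unit), for the 23 spots with a value on all arrays. No array held both stages, so array and stage share their source. Between stages 30 and 39 the levels rose in posterior endoderm on 10 of 23 spots, each by over 2-fold, and fell on none, also at an unadjusted p under 0.05. Over all 11791 probes 3.49% rose, 3.22% by over 2-fold, and 3.33% fell. The posterior difference was positive for 20 of the 23 spots, with a median of 1.13. In anterior endoderm, 3 spots rose (4.74% of all probes) and 3 fell (5.79%), with a median difference of -0.12.

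From stage 39 to 46 the posterior level fell on 10 of 23 spots, against 2.53% of all probes, and rose on none (2.63%), also at an unadjusted p under 0.05. The posterior difference was positive for 2 of the 23, with a median of -0.90. In anterior endoderm 1 spot fell (2.09% of all probes), the C5a receptor XL081b24, and none rose (2.92%; 3 at an unadjusted p under 0.05, and 0 after adjustment with quantile normalisation). Between stages 30 and 46, 6 spots rose (8.51%) and 1 fell (5.89%) in anterior endoderm. In posterior endoderm none of the 23 rose (6.3%) or fell (5.61%), in limma's separate-channel fit, where 743 and 661 of all probes did. At an unadjusted p under 0.05, 2 rose and 2 fell, and none passed after adjustment with quantile normalisation.

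These counts within a region changed when single arrays were left out. All 10 posterior rises to stage 39 ended without stage 39 array A, and most ended without stage 39 array B. Those of XL065k17, XL080j08, XL082i06 and XL092b14 ended when either stage 46 array was left out. With quantile normalisation of all channels the 10 became 6. The 10 posterior falls became 2 without stage 39 array A, 0 without stage 39 array B, 2 without stage 46 array A and 0 without stage 46 array B. Some of the 6 anterior rises between stages 30 and 46 ended when either stage 39 array or stage 46 array B was left out. Without stage 46 array A all of the 6 ended, with log2 differences from 0.99 to 1.98. All 3 anterior rises from stage 30 to 39 ended without stage 39 array A, and some ended without stage 39 array B or either stage 46 array. All 3 anterior falls over that interval ended when either stage 39 array was left out, and some ended when either stage 46 array was. The 1 anterior fall from stage 39 to 46 ended without any one of the stage 39 and stage 46 arrays.

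On C3 spot XL109m09 the posterior level was 15.25 and 14.84 at stage 30, 16.30 and 16.38 at stage 39, and 15.60 and 15.34 at stage 46. Its anterior level was 14.91 and 14.67, 14.34 and 14.36, and 14.97 and 14.73. The posterior stage 39 arrays were above, and the anterior ones below, all others of their region. Both stage 30 array A levels come from saturated spots, and the stage 39 posterior signal was partly saturated, so no fold is given. The posterior rise was 1.29 ± 0.26 on the log2 scale (adjusted p = 0.0132), and the anterior difference of -0.44 ± 0.26 did not pass (adjusted p = 0.3). With stage 30 array A left out they were 1.50 and -0.32 (adjusted p = 0.00641 and 0.382). The posterior rise was 1.33 without stage 39 array A and 1.26 without stage 39 array B (adjusted p = 0.104 and 0.119). XL092b08, XL092d13 and XL109m15 rose in posterior endoderm too, by 1.44 to 1.47 on the log2 scale. These rises ended without either stage 39 array (adjusted p = 0.0624 to 0.0901), and with quantile normalisation the rises of XL092b08, XL109m09 and XL109m15 no longer passed (adjusted p = 0.055, 0.109 and 0.252).

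The posterior level of factor B spot XL095i01 was 8.54 and 9.79 at stage 30, 11.24 and 11.18 at stage 39, and 9.99 and 10.29 at stage 46. Its anterior level was 9.16 and 10.35, 10.51 and 10.28, and 11.38 and 11.63. The posterior level peaked at stage 39 and the anterior level was highest at stage 46. The posterior rise to stage 39 was 4.12-fold (2.04 ± 0.37, adjusted p = 0.00657) and the anterior rise from stage 30 to 46 was 3.36-fold (1.75 ± 0.37, adjusted p = 0.0106). Over all settings tried, the first ran from 1.415 to 2.67 and the second from 1.16 to 2.34 on the log2 scale. The stage 30 arrays lay far apart in both regions, so these sizes are uncertain. The first was 2.01 without stage 39 array A and 2.07 without stage 39 array B (adjusted p = 0.071 and 0.0624), and the second 1.87 without stage 46 array A and 1.62 without stage 46 array B (adjusted p = 0.0726 and 0.112).

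XL106m16, matched to chicken C3, had a posterior level of 12.01 and 11.28, 12.73 and 13.50, and 11.10 and 9.26 at the 3 stages. Its posterior fall from stage 39 to 46 was 7.65-fold (-2.94 ± 0.51, adjusted p = 0.00717), and its anterior level changed by -0.76 ± 0.51 (adjusted p = 0.418). The size rests on stage 46 array B: the fall was -2.01 without it (adjusted p = 0.0611) and -2.55 without stage 39 array B (adjusted p = 0.113).

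C9 rose in both regions between stages 30 and 39 on XL082i06, by 1.33 ± 0.36 in anterior (adjusted p = 0.0357) and 1.51 ± 0.36 in posterior endoderm (adjusted p = 0.0273). Its anterior level was 10.14 and 10.99, 12.40 and 11.39, and 12.77 and 12.54 at the 3 stages. The anterior arrays of stages 39 and 46 all lay above those of stage 30, and from stage 30 to 46 the anterior level was 4.26-fold higher (2.09 ± 0.36, adjusted p = 0.00397). That rise was 1.98 without stage 46 array A, where it no longer passed. Over all settings tried, it ran from 1.66 to 2.52 on the log2 scale. Both rises to stage 39 ended without stage 30 array A, stage 39 array A or either stage 46 array; without stage 39 array A they were 0.83 and 1.00 (adjusted p = 0.303 and 0.271).

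Ficolin 2 differed in which region moved. On XL060m16 the anterior level was 10.85 and 10.68 at stage 30, 9.50 and 9.26 at stage 39, and 9.78 and 9.70 at stage 46, while the posterior level lay between 10.23 and 10.80 on all 6 arrays. The anterior level was highest at stage 30. It fell by 1.38 ± 0.33 from stage 30 to 39 (adjusted p = 0.0215), and that of XL103p18 fell by 1.06 ± 0.30 (adjusted p = 0.0445), both without a posterior change that passed (-0.04 ± 0.33 and -0.42 ± 0.30). Both anterior falls ended without any one of the stage 39 and stage 46 arrays (adjusted p = 0.0517 to 0.271), and that of XL103p18 also without stage 30 array B (-0.81, adjusted p = 0.166). On ficolin 1 spot XL096m22 the anterior level fell by 1.65 ± 0.45 from stage 30 to 46 (adjusted p = 0.0318), and this fall ended without any one array other than stage 30 array B (adjusted p = 0.0556 to 0.191).

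**Figure D3:**
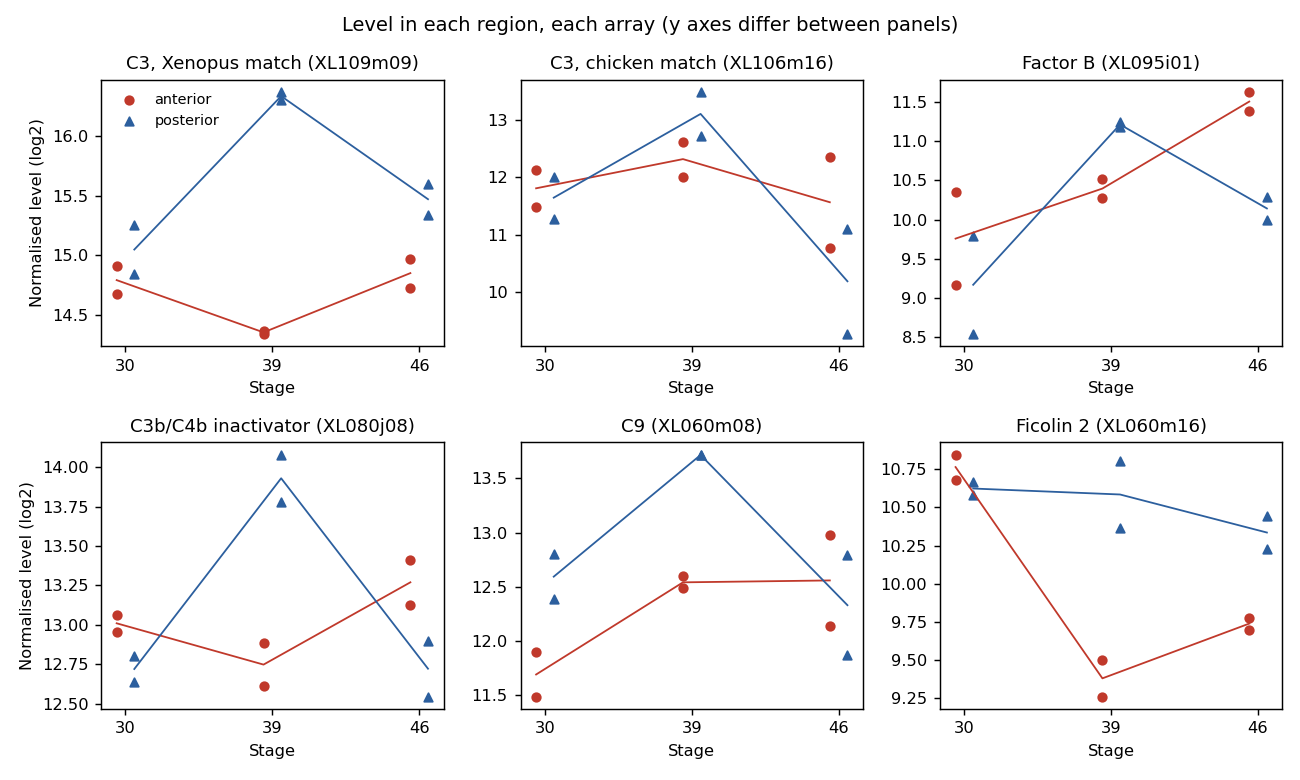
Normalised log2 level in anterior (red circles) and posterior (blue triangles) endoderm on each array, with lines through the stage means, for 1 spot of each of 6 annotations; the y axes differ between panels and do not start at 0. The posterior level peaks at stage 39 in the C3, factor B, inactivator and C9 panels, while on ficolin 2 the anterior level drops after stage 30.

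The likeness of other annotated probes was measured as the root mean square distance, in log2 units over 6 arrays, to the mean ratio of the 5 tested spots of Xenopus C3, among 3912 names. The nearest was a probe matched to the fly gene CG14434 (XL057c01, distance 0.118), with mean ratios of -0.43, -1.86 and -0.49 at stages 30, 39 and 46. Next came a creatine kinase (XL101k05, 0.149), a maturase match (XL096j09, 0.174), a match to the worm gene E02H9.6 (XL064o11, 0.181) and one to the fly gene CG6000 (XL072k21, 0.199). Spots picked by the rule on names were left out of this search, so none of the 5 could be one of them. The inactivator, also with 5 tested spots, was nearest to Xsal-3 (XL086d24, 0.140), purine nucleoside phosphorylase (XL101o21, 0.175), zinc finger protein 151 (XL092a08, 0.214), a hypothetical protein (XL077b21, 0.226) and XOct25 (XL0c2c21, 0.228).

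Spots of other genes tied to complement were read as a list of 12. It held pentraxins, which bind microbial surfaces and can start complement in mammals, among others. Of 7 tested at stage 39, 4 were higher and 2 lower in anterior endoderm, with a median of 0.37, and of 9 tested at stage 46, 7 were higher and 2 lower, with a median of 0.60. At stage 30, 1 of 8 was higher and 3 were lower. Over all tested probes 28.6%, 31.4% and 30.4% were higher and 27.7%, 31.7% and 25.2% lower at stages 30, 39 and 46. Pentraxin spot XL099b04 had a stage 39 ratio of 0.76 ± 0.06 (adjusted p = 4.17e-05), and XL084m18, matched to a protein named for C1q, had 0.41 ± 0.06 (adjusted p = 0.000912). C-reactive protein, spot XL062l01, had a stage 39 ratio of -0.18 ± 0.05 (adjusted p = 0.0201).

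Endodermin, an early endoderm protein of Xenopus related to alpha-2-macroglobulin, had a ratio of -1.70 ± 0.08 on XL068h01 and -1.55 ± 0.06 on XL099n14 at stage 39 (adjusted p = 4.82e-06 and 1.71e-06). At stage 46 the ratios were 0.04 ± 0.08 and 0.36 ± 0.06. Both spots were singled out after their values were seen. GATA-6B, an endodermal transcription factor, was higher in anterior endoderm at stage 39 on all 4 of its spots, by 0.54 to 0.92. Among the 8 tested spots of the whole endoderm list, 4 were higher and 2 lower at stage 39, with a median of 0.21. At stage 30, 7 of the 8 were higher and 1 lower, and at stage 46, 3 were higher and 2 lower. Among all tested probes 28.6%, 31.4% and 30.4% were higher and 27.7%, 31.7% and 25.2% lower at stages 30, 39 and 46.

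Spots of plasma proteins of the liver other than complement numbered 14, and 10 passed the filter. Of these 10, tested at stage 39, 6 were higher and 3 lower in anterior endoderm, with a median of 0.33. At stage 30, 5 of 10 were higher and 3 lower, and at stage 46, 5 of 8 were higher and 0 lower. The shares over all tested probes at stages 30, 39 and 46 were 28.6%, 31.4% and 30.4% higher and 27.7%, 31.7% and 25.2% lower. Markers of other cell types were read beside the complement values. These lists match words in the annotated name, so they can include spots of genes not confined to a single cell type. The muscle words took in XL101k05, a creatine kinase whose annotation, cut short, reads "UBIQUI". Red blood cell spots (15, of which 8 passed the filter) were lower in anterior endoderm on 4 of 6, 5 of 7 and 7 of 8 tested at stages 30, 39 and 46, and higher on 0, 0 and 1, with medians of -0.29, -0.70 and -0.68. At stage 39 their summed background-subtracted intensity was 13885 to 14780 in the anterior and 20480 to 22372 in the posterior channel. Skeletal muscle spots were lower on 31 and higher on 9 of 55 tested at stage 39 (median -0.26, sums of 106182 to 107611 and 119139 to 119927). Epidermis spots were lower on 16 and higher on 3 of 30 (median -0.26, sums of 59031 to 67842 and 79761 to 85246). Muscle spots were lower on 14 and higher on 15 of 45 at stage 30, and lower on 23 and higher on 11 of 55 at stage 46. Epidermis spots were lower on 17 and higher on 13 of 39 at stage 30, and lower on 14 and higher on 9 of 35 at stage 46.

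White blood cell spots were lower on 2 and higher on 1 of 8 tested at stage 39. Their median was 0.01, with sums of 39541 to 47035 and 31163 to 37152. At stage 30 they were lower on 1 and higher on 2 of 8, and at stage 46 lower on 5 and higher on 0 of 8. Notochord and cartilage spots were higher on 3 and lower on 4 of 8 at stage 39. They were higher on 2 and lower on 2 of 7 at stage 30, and higher on 3 and lower on 1 of 8 at stage 46. No marker spot of these lists was at or below background on all arrays. Their part in the complement ratios was not tested.

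In the authors' deposited table, which holds 1 ratio per clone and stage, 29 of the 32 spots had a value at stage 39, and 22 of these lay below the median of all clones, 0.802. The authors' deposited table gave C3 spot XL109m15 a ratio of 0.378 at stage 39 and 1.10 at stage 46. For the C8 spot XL061p21, not tested here, the authors' deposited table gave 0.304 and 0.983 at these stages.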

How the data were processed

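RNA of anterior (Cy5) and posterior (Cy3) endoderm was hybridised to 2 arrays at each of 3 stages, per the labels. The spot intensity and local background values in the authors' deposited scanner files are not normalised. Per the file headers these files also give the percent of saturated pixels of each spot, used here to describe saturation, and a flag score that marks spots not found. A ratio for each clone and stage was deposited by the authors, made per the labels with GeneData software from both arrays. Aligner and build do not apply, and the software's versions were not stated in the labels.

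Backgrounds were corrected by normexp (offset 50) and log2 ratios of the deposited intensities were normalised within each array by loess (span 0.3) in limma 3.58.1 (R 4.3.3, data.table version 1.17.8). Loess gave weight 0 to the 231 control spots and to spots that the scanner software did not find, and both were then dropped. Well above background means a spot median over 2 background SDs above the median of the local background. The 15646 probes that reached this in either channel on 2 or more of the 6 arrays were kept. One limma fit with stage means gave regional differences and their changes, with Benjamini-Hochberg adjustment over all probes and a threshold of 0.05. A comparison used probes with a value on all its arrays. Levels within a region came from limma's separate-channel fit after Aquantile normalisation (11791 probes, correlation within a spot 0.952). No fold is given where a region was not well above background on any array of the stage. The fits were tested on simulated data.

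The spots and gene lists were chosen with earlier results of these data known, and the endoderm list after values were seen. All tested spots are named; the 5 nearest names, each by its brightest tested probe, were given for the 2 annotations tied for most tested spots. Other settings were no or plain background subtraction, loess span 0.6, median centring, scaling between arrays, quantile normalisation, a looser and a stricter filter, the authors' ratio, and leaving out each array. Spot positions and clone sequences were not used here. In RefSeq (Xenopus laevis v10.1) a search by gene symbol found 1 entry each for C3, C8 beta, C9 and ficolin 2. It found 2 each for factor B, factor I, ficolin 1 and the C5a receptor. Copies listed under other symbols would be missed, and spots could not be assigned to copies.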

Additional observations from a re-analysis of the deposited data

Results flagged for a closer look

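The spots below were singled out because the difference between anterior and posterior endoderm itself differed between stages, by the test of that difference in limma's fit over all probes (Benjamini-Hochberg adjusted p under 0.05). Stage 39 arrays enter both of the first sets of changes, and no explanation was weighed. Calls that ended without 1 array, such as those of XL105k10 without stage 46 array A (-0.22 and -0.31 for its changes to stages 39 and 46), are named above with each spot.

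From stage 30 to 39 the log2 ratio of anterior over posterior changed on 21 of 25 tested spots. Over all 12787 tested probes it rose on 29.6% and fell on 30.5%. For C3 matched to Xenopus the change was -1.45, -1.59, -1.26, -1.73 and -1.71 on XL073e22, XL092b08, XL092d13, XL109m09 and XL109m15, in that order. For C3 matched to chicken the change was -0.96 on XL106m16. For the C3b/C4b inactivator the change was -0.78, -1.75, -1.47, -1.61 and -1.46 on XL064m07, XL079j08, XL080j08, XL083e15 and XL096o08, in that order. For the C5a receptor the change was 0.25 and -0.22 on XL081b24 and XL105k10, in that order. For C8 beta the change was -1.17 on XL077n16. For C9 the change was -0.27 and -0.27 on XL060m08 and XL063h23, in that order. For factor B the change was -1.11 and -1.40 on XL061n05 and XL095i01, in that order. For ficolin 1 the change was -1.20 on XL096m22. For ficolin 2 the change was -1.34 and -0.64 on XL060m16 and XL103p18, in that order.

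From stage 39 to 46 the ratio changed on 21 of 23 tested spots. Over all 12677 tested probes it rose on 28.1% and fell on 22.1%. For C3 matched to Xenopus the change was 1.18, 1.70, 1.56, 1.37 and 1.64 on XL073e22, XL092b08, XL092d13, XL109m09 and XL109m15, in that order. For C3 matched to chicken the change was 1.92 and 2.18 on XL065k17 and XL106m16, in that order. For the C3b/C4b inactivator the change was 1.12, 1.89, 1.73, 2.07 and 1.10 on XL064m07, XL079j08, XL080j08, XL083e15 and XL096o08, in that order. For the C5a receptor the change was -0.37 on XL081b24. For C8 beta the change was 0.53 on XL092b14. For C9 the change was 1.40, 1.32, 0.72 and 1.29 on XL060m08, XL062d21, XL063h23 and XL082i06, in that order. For factor B the change was 2.18 on XL095i01. For ficolin 2 the change was 0.61 and 0.84 on XL060m16 and XL103p18, in that order.

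From stage 30 to 46 the ratio changed on 15 of 23 tested spots. Over all 12847 tested probes it rose on 28.7% and fell on 24.7%. For C3 matched to Xenopus the change was 0.29 and -0.37 on XL092d13 and XL109m09, in that order. For C3 matched to chicken the change was 1.59 and 1.22 on XL065k17 and XL106m16, in that order. For the C3b/C4b inactivator the change was 0.45 and -0.35 on XL083e15 and XL096o08, in that order. For the C5a receptor the change was -0.28 on XL105k10. For C8 beta the change was 0.70 on XL092b14. For C9 the change was 1.13, 1.46, 0.45 and 1.11 on XL060m08, XL062d21, XL063h23 and XL082i06, in that order. For factor B the change was 0.77 on XL095i01. For ficolin 1 the change was -1.42 on XL096m22. For ficolin 2 the change was -0.74 on XL060m16.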

How the results depend on the processing

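At stage 39 no call of a complement or ficolin spot was lost under any alternative that still tested it. Median centring turned the sign of 11 spot values, 7 of which passed with neither normalisation. The other 4 were XL092b08 (0.21) and XL092d13 (0.013) at stage 46, and the change from stage 30 to 39 of XL060m08 (0.013) and XL105k10 (0.03). At stage 39 it shifted the ratios upward, by a median of 0.25 over the spots and 0.01 over all probes. The median ratio of the spots was then -0.86, beside -1.12 with loess, so the count of 14 spots over 2-fold lower rests on loess. The authors' deposited ratio moved 26 of 64 regional values by more than the spread between arrays: 1 of 18 at stage 30, 16 of 24 at stage 39 (shifts from -0.45 to 0.38) and 9 of 22 at stage 46 (-0.18 to 0.27). It turned the sign of 0, 0 and 4 of the 18, 24 and 22 values, and none of the 4 had passed. The authors' ratios were compared as deposited, without centring. Their log2 median over all clones was -0.04, -0.32 and -0.11 at stages 30, 39 and 46, so these shifts and signs compare ratios with unlike centres. Over all clones they correlated with the log2 ratios computed here with r = 0.995, 0.849 and 0.977. Quantile normalisation turned the sign of 4 levels within a region, and loess span 0.6 and no background subtraction that of 1 ratio each, none past the threshold. The spots whose ratio rose from stage 30 to 39 numbered 0 with no or plain background subtraction, 3 with median centring and 2 with no filter. Spots higher at stage 39 numbered 2, and spots whose ratio fell from stage 39 to 46 numbered 2, with median centring and with no filter.

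Requiring both channels well above background on all arrays left 11 of the spots. Of these 2 were higher and 6 lower at stage 30, 0 and 10 at stage 39, and 5 and 2 at stage 46. The ratio rose for 0 and fell for 8 from stage 30 to 39, for 11 and 0 from stage 39 to 46, and for 6 and 3 from stage 30 to 46. Calls over all probes were then 2139, 2435 and 2140 at stages 30, 39 and 46, and 2275, 1906 and 2059 for the changes from stage 30 to 39, 39 to 46 and 30 to 46, since fewer probes were tested. Of the 3550 probes then tested, 1131 were called higher and 1008 lower at stage 30. At stage 39 these numbered 1299 and 1136, and at stage 46 1301 and 839. The ratio rose for 1118 and fell for 1157 of the 3550 from stage 30 to 39. From stage 39 to 46 these numbered 1099 and 807, and from stage 30 to 46 1171 and 888.

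Leaving out each array gave 4475 to 8698 called probes at stage 46, 3 to 6 spots lower at stage 46, 0 to 1 whose ratio rose from stage 30 to 39, 0 to 1 whose ratio fell from stage 39 to 46 and 2 to 6 whose ratio fell from stage 30 to 46. Within anterior endoderm the called probes ranged from 276 to 2254, 141 to 1286 and 422 to 2076 for stages 30 to 39, 39 to 46 and 30 to 46, and within posterior endoderm from 276 to 1765, 188 to 1100 and 446 to 1996. Spots that rose and fell within anterior endoderm ranged from 0 to 5 and 0 to 4, 0 to 1 and 0 to 2, and 1 to 6 and 0 to 1, and within posterior endoderm from 0 to 13 and 0 to 0, 0 to 0 and 0 to 13, and 0 to 2 and 0 to 1. Each of these counts takes the spots called in that fit, which need not be those called with all arrays. The cause of the ranges was not tested. Where an array left its stage with 1, that array was assumed to vary like the others. The regions of a stage were paired on each array through the ratio. Stages could not be paired, because the labels give 1 sample per stage and do not tie arrays of different stages to each other. Dim spots, with signal near background, limit the smaller folds.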
